A study of Mus musculus with 8 samples.

Results

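The transcripts described here are 10 genes that mark oligodendrocyte precursor cells: Pdgfra, Cspg4, Olig1, Olig2, Sox8, Sox10, Nkx2-2, Gpr17, C1ql1 and Lhfpl3. They were chosen by name as known markers, and their probes were found by matching the accession on the array to a gene symbol. All 10 were measured, among 13332 genes in the whole experiment, and each was well above background on all 8 arrays. RNA came from secondary neurospheres, free-floating balls of neural stem and progenitor cells that re-form after primary spheres are dissociated, grown from the hippocampus of mice aged 7 to 9 weeks. There were 4 groups of 2 arrays, 8 in all: Sirt1 KO and WT cells of strain 129/ICR, cultured for 6 days, and resveratrol-treated and DMSO-treated wild-type cells of strain C57BL/6, cultured for 5 days and then exposed to the compound or its solvent for 24 hours. The labels write the resveratrol dose as 10 "mm", so its true unit is not certain. They do not say which part of Sirt1 was deleted or in which cells. Replicates of Sirt1 KO and of WT differed in sex and so in animals, but for resveratrol and DMSO the labels do not say whether replicates were separate animals or cultures, and the spread there may be technical. Growth medium held EGF, bFGF and heparin in the secondary culture of every group, while PDGF-BB, a ligand of PDGF receptors, was listed only for the primary culture.

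Oligodendrocyte precursors are dividing glial cells that persist in the adult brain and give rise to myelinating oligodendrocytes. They depend on PDGF signalling through PDGFRA, and the basic helix-loop-helix factors OLIG1 and OLIG2, the homeodomain factor NKX2-2 and the HMG-box factors SOX8 and SOX10 set up their identity. GPR17 is a G protein-coupled receptor that peaks as precursors commit to differentiate. Neural stem cells grown as spheres in growth factors can also carry OLIG2. In bulk RNA, fewer cells of a type and less RNA per cell cannot be told apart.

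Promoter sequences from RefSeq (build GRCm38.p6) were found for 6 of the 10 genes: Pdgfra, Cspg4, Olig2, Sox8, Nkx2-2 and Lhfpl3. Olig1, Sox10, Gpr17 and C1ql1 were the other members. The 250 bases before the annotated start are shown for Pdgfra and Sox8, the 2 members with the smallest unadjusted p after resveratrol, and for Olig2, whose signal differed least there. They lie at chr5:75152001-75152250 on the plus strand, chr17:25570687-25570936 on the minus strand and chr16:91225300-91225549 on the plus strand. Each runs 5′ to 3′ along its gene, and capitals mark the E-box CANNTG, the hexamer that basic helix-loop-helix factors bind.
Pdgfra: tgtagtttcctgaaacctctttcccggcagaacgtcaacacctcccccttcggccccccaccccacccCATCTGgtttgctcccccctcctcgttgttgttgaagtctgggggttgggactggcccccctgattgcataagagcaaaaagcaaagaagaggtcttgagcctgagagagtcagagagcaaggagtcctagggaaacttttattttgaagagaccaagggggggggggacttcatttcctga
Sox8: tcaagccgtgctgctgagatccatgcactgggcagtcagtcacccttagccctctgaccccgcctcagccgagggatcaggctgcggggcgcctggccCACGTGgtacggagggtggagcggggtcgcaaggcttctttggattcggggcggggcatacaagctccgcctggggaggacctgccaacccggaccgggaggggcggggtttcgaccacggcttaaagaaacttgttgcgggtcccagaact
Olig2: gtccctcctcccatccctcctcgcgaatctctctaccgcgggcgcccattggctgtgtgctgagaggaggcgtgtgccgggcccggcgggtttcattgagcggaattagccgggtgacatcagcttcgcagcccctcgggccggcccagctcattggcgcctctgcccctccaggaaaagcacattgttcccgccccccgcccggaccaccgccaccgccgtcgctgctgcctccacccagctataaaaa
Pdgfra held 1 E-box (CATCTG), Sox8 held 1 (CACGTG) and Olig2 held 0. Over the genes found, 4 of 6 windows held this motif on either strand, and so did 66.0% of 27025 promoters of the same length. ACAANG, the core that SOX factors bind, was present in the Pdgfra and Olig2 windows and in 36.6% of all promoters. CACNAG, the N-box of HES repressors, was in the Lhfpl3 window alone among the 6 and in 36.7% of all promoters. These are matches of letters, not measured binding.

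Signals are given as log2 intensity relative to the 75th percentile of the same array, which compares arrays but not genes, since probes differ in brightness. That percentile lay between 716 and 871 intensity units for replicate 1 and between 249 and 377 for replicate 2, and 53.0% to 72.0% of probes were well above background, with 0 saturated. The arrays lay on 3 slides. Resveratrol and DMSO replicate 1 shared a slide with WT replicate 1, resveratrol and DMSO replicate 2 shared another with Sirt1 KO replicate 1, and Sirt1 KO and WT replicate 2 lay on the third, scanned on another day. Replicate 1 of Sirt1 KO and of WT came from females, and all other arrays from males. Neural stem cell markers such as Nes and Sox2 were well above background on all 8 arrays for 14 of 14 genes. Sirt1 itself read 0.42 and -0.07 in Sirt1 KO, against 0.16 and 0.17 in WT, which does not check the genotype because the place of its probe relative to the deletion is unknown.

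**Figure D1:**
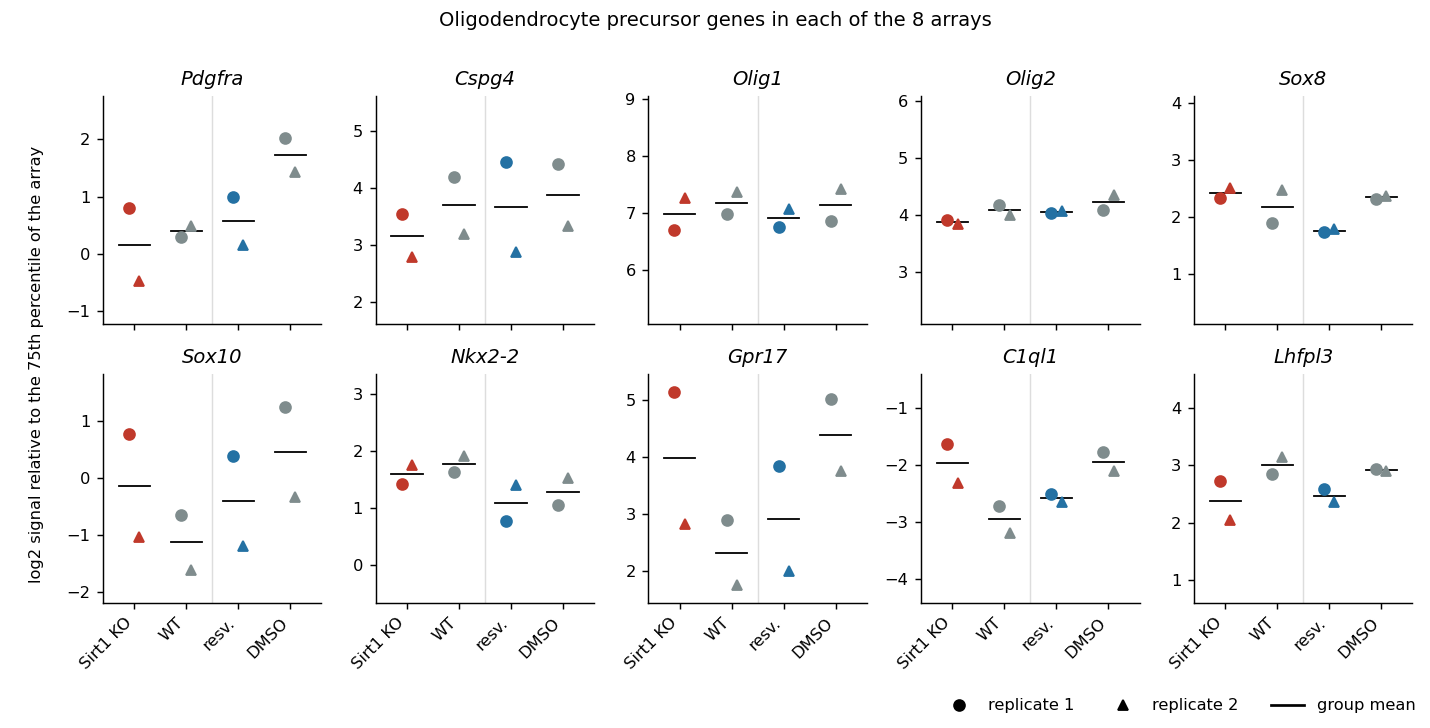
Signal of the 10 genes as log2 over the 75th percentile, array by array, in Sirt1 KO, WT, resveratrol (resv.) and DMSO neurospheres; circles are replicate 1, triangles replicate 2, bars the mean of 2 arrays, and each panel spans the same number of log2 units. Gpr17 ran from 1.76 in WT replicate 2 to 5.15 in Sirt1 KO replicate 1, while Olig2 stayed between 3.84 and 4.35.

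Resveratrol was set against DMSO to ask how the compound changed wild-type neurospheres. All 10 precursor genes had a lower mean signal after resveratrol, with a median difference of -0.52 on the log2 scale, against 0.01 over all 13332 genes. In 9 of them the signal was lower in both pairs of arrays that shared a slide, compared with 33% of all genes, and 0 were higher in both pairs, compared with 35.5%. In 5 of them, Pdgfra, Olig2, Sox8, C1ql1 and Lhfpl3, both resveratrol arrays lay below both DMSO arrays, compared with 8.86% of all genes. In 0 of them both lay above, compared with 10.2%. This count rests on the brightest probe of each gene. On the second probes of Olig2 and Sox8, well above background on all arrays, the groups overlapped. None of the 10 passed the test across all genes (limma, smallest adjusted p = 1.0), and neither did any other gene (0 of 13332 called, 0%, with 203, or 1.52%, at an unadjusted p under 0.05). A shift of the whole list toward lower signal was already known from earlier work on these arrays when the genes were chosen, so their direction is a description and not independent evidence.

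Among the surface proteins, the PDGF receptor gene Pdgfra read 0.997 and 0.16 after resveratrol, against 2.02 and 1.43 in DMSO. The highest resveratrol array was thus below the lowest DMSO array, and the mean was 2.22-fold lower (log2 difference -1.15, SE 0.49, n = 2 arrays per group). Its second probe, well above background on 5 of 8 arrays, differed by -1.03 and -1.55 within the slides. Cspg4, which encodes the NG2 proteoglycan, read 4.44 and 2.87 after resveratrol, against 4.41 and 3.33 in DMSO. These groups overlapped, and the difference of -0.22 (SE 0.66) was far inside the gap between replicates. Lhfpl3, a tetraspan membrane protein gene, read 2.58 and 2.35 after resveratrol, against 2.94 and 2.90 in DMSO, with no overlap and a difference of -0.45 (SE 0.30).

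Gpr17 had the largest mean difference of the 10, at 2.76-fold lower. It read 3.85 and 2.00 after resveratrol, against 5.02 and 3.76 in DMSO. The groups overlapped, with replicate 1 brighter than replicate 2 in each, and within a slide the difference was -1.17 and -1.76 (mean -1.47, SE 0.96). C1ql1, a secreted protein of the C1q family made by precursors, read -2.51 and -2.65 after resveratrol, against -1.77 and -2.11 in DMSO. Both resveratrol arrays lay below both DMSO arrays, by 0.64 on average (log2 difference -0.64, SE 0.35).

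The mean differences of the 5 transcription factors ran from -0.85 for Sox10 to -0.17 for Olig2. Sox8 read 1.74 and 1.78 after resveratrol, against 2.31 and 2.37 in DMSO, so that the arrays of each group lay closer together than the groups did. Its difference was -0.57 and -0.59 within the slides (mean -0.58, SE 0.25). Its second probe gave -0.30 and -1.04, with overlap between the groups (1.64 and -0.24, against 1.94 and 0.79). Sox10 read 0.39 and -1.19 after resveratrol, against 1.24 and -0.34 in DMSO, with a difference of -0.85 on either slide (SE 0.84). Its groups overlapped, and the replicates of a group stood further apart than that. Olig2 read 4.04 and 4.07 after resveratrol, against 4.09 and 4.35 in DMSO, a difference of -0.17 (SE 0.26). These groups did not overlap, but its SE was larger than the difference. The second Olig2 probe did overlap, at -0.05 and -0.47 after resveratrol, against 0.26 and -0.11 in DMSO. Olig1 read 6.75 and 7.07 after resveratrol, against 6.86 and 7.41 in DMSO (-0.23, SE 0.50). Nkx2-2 read 0.78 and 1.41 after resveratrol, against 1.05 and 1.53 in DMSO (-0.20, SE 0.31). Both overlapped between the groups. Cspg4 was higher after resveratrol once resveratrol replicate 2 (0.57) or DMSO replicate 1 (0.32) was left out. Olig1 turned without DMSO replicate 2 (0.0501), and Nkx2-2 turned without resveratrol replicate 1 (0.118) or DMSO replicate 2 (0.0454). Leaving out 1 array turned none of the other 7 genes.

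**Figure D2:**
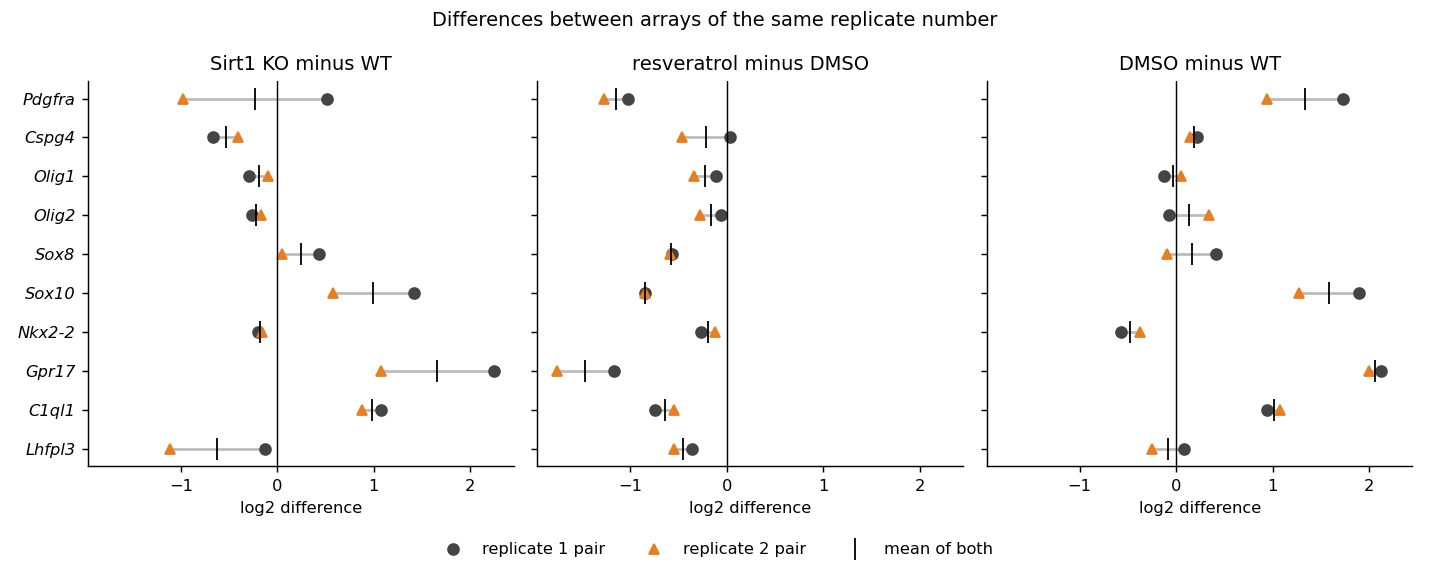
For each gene, the log2 difference within each replicate number in the 3 comparisons; circles are replicate 1, triangles replicate 2 and ticks their mean. In the middle panel 9 of 10 genes lie left of 0 for both pairs, and in the left panel Gpr17 (2.25 and 1.07), Sox10 (1.41 and 0.58) and C1ql1 (1.08 and 0.88) lie right of it.

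The Sirt1 KO and WT arrays bear on the effect of losing SIRT1, an NAD-dependent deacetylase. The precursor genes did not go one way: 4 were higher in both pairs (Gpr17, Sox10, C1ql1 and Sox8), compared with 23.5% of all genes, and 5 were lower in both (Cspg4, Lhfpl3, Olig1, Olig2 and Nkx2-2), compared with 32.6%. Without overlap between groups, C1ql1 was higher (7.6% of all genes) and Olig2 and Lhfpl3 were lower (7.37% of all genes). The second probe of Olig2 overlapped between the groups and was lower in the replicate 1 pair only. The median difference of the 10 was -0.18, against -0.03 over all genes. limma called 0 of 13332 genes (0%, with 158, or 1.19%, at an unadjusted p under 0.05) and none of the 10 (smallest adjusted p = 1.0).

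Gpr17 read 5.15 and 2.83 in Sirt1 KO, against 2.90 and 1.76 in WT. The mean was 3.16-fold higher in Sirt1 KO (log2 difference 1.66, SE 0.96), but the weaker Sirt1 KO array lay below the stronger WT array. Within the third slide, which held a Sirt1 KO and a WT array, the difference was 1.07. Sox10, which works with OLIG2 and turns on myelin genes, read 0.77 and -1.03 in Sirt1 KO, against -0.65 and -1.61 in WT. Its groups overlapped too, with a difference of 0.996 (SE 0.84) and 0.58 within the third slide. C1ql1 read -1.63 and -2.31 in Sirt1 KO, against -2.71 and -3.19 in WT, with no overlap, and was 1.97-fold higher in Sirt1 KO (log2 difference 0.98, SE 0.35). That direction turned to -0.23 when the local background was corrected with normexp, a model that splits signal from background. The C1ql1 probe lay below the 75th percentile on every array. Sox8 differed by 0.24 (SE 0.25) and its second probe by 0.53.

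On the other side, Lhfpl3 read 2.73 and 2.04 in Sirt1 KO, against 2.86 and 3.15 in WT, a difference of -0.62 (SE 0.30), most of it in the replicate 2 pair (-1.12 against -0.13 in the replicate 1 pair). Cspg4 read 3.53 and 2.78 in Sirt1 KO, against 4.19 and 3.19 in WT (-0.53, SE 0.66), and its second probe differed by -0.54. The 3 early factors were close to the WT level: Olig2 differed by -0.22 (SE 0.26), Olig1 by -0.19 (SE 0.50) and Nkx2-2 by -0.18 (SE 0.31). Olig2 read 3.91 and 3.84 in Sirt1 KO, against 4.17 and 4.01 in WT. On this probe its spread between replicates was the smallest of the 10 in both groups. Its second probe read -0.27 and -0.46 in Sirt1 KO, against 0.03 and -0.46 in WT, with pair differences of -0.30 and 0.001. With normexp on the local background Olig2 (0.10), Olig1 (0.24) and Nkx2-2 (0.09) turned to higher, and Cspg4 was level with slide as a block (0.02). Pdgfra read 0.80 and -0.48 in Sirt1 KO, against 0.29 and 0.49 in WT, so the pairs went opposite ways (0.52 and -0.97). Leaving out Sirt1 KO replicate 2 turned Pdgfra to 0.41, leaving out Sirt1 KO replicate 1 turned Olig1 to 0.0938, and leaving out WT replicate 1 turned Sox8 to -0.0400.

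With slide as a block, which sets a common level for the arrays of 1 slide, Gpr17 in Sirt1 KO against WT differed by 2.17 (adjusted p = 0.488), Sox10 by 1.55 (adjusted p = 0.517) and C1ql1 by 1.05 (adjusted p = 0.488). None of the 10 passed in this fit, and neither did any gene (0 of 13332, 0%, with 1252, or 9.39%, at an unadjusted p under 0.05). In resveratrol against DMSO each slide held both groups, so the differences were those given above, and 0 genes passed (0%, with 614, or 4.61%, at an unadjusted p under 0.05). Sox8 had the smallest adjusted p of the 10 there, at 0.997.

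The difference between both comparisons was tested as well. Gpr17, Sox10, C1ql1 and Sox8 lay higher in Sirt1 KO than in WT and lower in resveratrol than in DMSO, in both pairs of each. They are set apart here by these signs, and the share of all genes with the same pattern was not computed. C1ql1 in Sirt1 KO against WT turned to -0.23 with normexp on the local background. Sirt1 KO minus WT exceeded resveratrol minus DMSO by 3.12 for Gpr17 (SE 1.35), by 1.85 for Sox10 (SE 1.19), by 1.62 for C1ql1 (SE 0.50) and by 0.82 for Sox8 (SE 0.36). None of these passed the test over all genes (limma, adjusted p = 1.0 for each), and 0 of 13332 genes did (0%, with 126, or 0.945%, at an unadjusted p under 0.05). With slide as a block 0 genes passed as well (0%, with 966, or 7.25%, at an unadjusted p under 0.05). It was 0.92 for Pdgfra (SE 0.69) and -0.32 for Cspg4 (SE 0.93), and lay nearest 0 for Olig1 (0.03), Olig2 (-0.05), Nkx2-2 (0.02) and Lhfpl3 (-0.17).

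DMSO was set against WT as a comparison of the 2 wild-type controls, which differ at once in strain, solvent, sex makeup, slides and scan day, and these cannot be told apart. Both comparisons above share a control with this one. Precursor genes were again split: Pdgfra, Sox10, Gpr17 and C1ql1 lay higher in DMSO with no overlap (12.7% of all genes), Nkx2-2 lay lower with no overlap (13.5% of all genes), and the other 5 overlapped. The Gpr17 arrays read 5.02 and 3.76 in DMSO, against 2.90 and 1.76 in WT, 4.18-fold higher on average (log2 difference 2.06, SE 0.96). Pdgfra was 2.53-fold higher in DMSO (1.34, SE 0.49), Sox10 2.99-fold (1.58, SE 0.84) and C1ql1 2.01-fold (1.01, SE 0.35, -0.27 with normexp on the local background). Nkx2-2 read 1.05 and 1.53 in DMSO, against 1.62 and 1.90 in WT (-0.47, SE 0.31). In both pairs, 5 precursor genes were higher (27.8% of all genes) and 1 was lower (32.6%). limma called 10 of 13332 genes (0.075%, 4 higher or 0.03% and 6 lower or 0.045%, with 747, or 5.6%, at an unadjusted p under 0.05) and none of the 10 precursor genes (smallest adjusted p = 0.673, for C1ql1). With slide as a block it called 145 genes (1.09%, with 1595, or 12%, at an unadjusted p under 0.05) and 0 of the 10. Leaving out any 1 array of DMSO or WT left 0 genes called.

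Across the 4 groups, Gpr17, Sox10 and C1ql1 followed the same order of mean signal, with WT lowest, then resveratrol, Sirt1 KO and DMSO. For Gpr17 these means were 2.33, 2.93, 3.99 and 4.39, and only WT and DMSO did not overlap. C1ql1 averaged -2.95 in WT, -2.58 in resveratrol, -1.97 in Sirt1 KO and -1.94 in DMSO. Its WT and resveratrol arrays did not overlap, nor did resveratrol and Sirt1 KO, while Sirt1 KO and DMSO did. Pdgfra had another order, 0.16 in Sirt1 KO, 0.39 in WT, 0.58 in resveratrol and 1.73 in DMSO, in which DMSO alone stood clear of every other group. Olig1 and Olig2, which lie close together on chromosome 16 with 1 annotated gene between them, varied little, with group means of 6.91 to 7.17 and 3.87 to 4.22.

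The replicates of a group also differed, in a way that varied between genes and, for Sox8, between probes. Cspg4, Sox10, Gpr17 and C1ql1 were brighter in replicate 1 than in replicate 2 in 4 of 4 groups. Olig1, Sox8 and Nkx2-2 were dimmer in replicate 1 in all 4. The second Sox8 probe was brighter in replicate 1 in all 4 groups. It read 2.05 and 0.74 in Sirt1 KO, 1.61 and 0.12 in WT, 1.64 and -0.24 after resveratrol and 1.94 and 0.79 in DMSO. For Gpr17 the gap reached 2.32 log2 units in Sirt1 KO (5.15 and 2.83), larger than its mean difference in any of the 3 comparisons. Replicate 1 arrays had the stronger overall signal, lay on another slide than replicate 2 of the same group and, in the Sirt1 KO and WT groups, from the other sex. The part of these in the gaps was not tested.

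**Figure D3:**
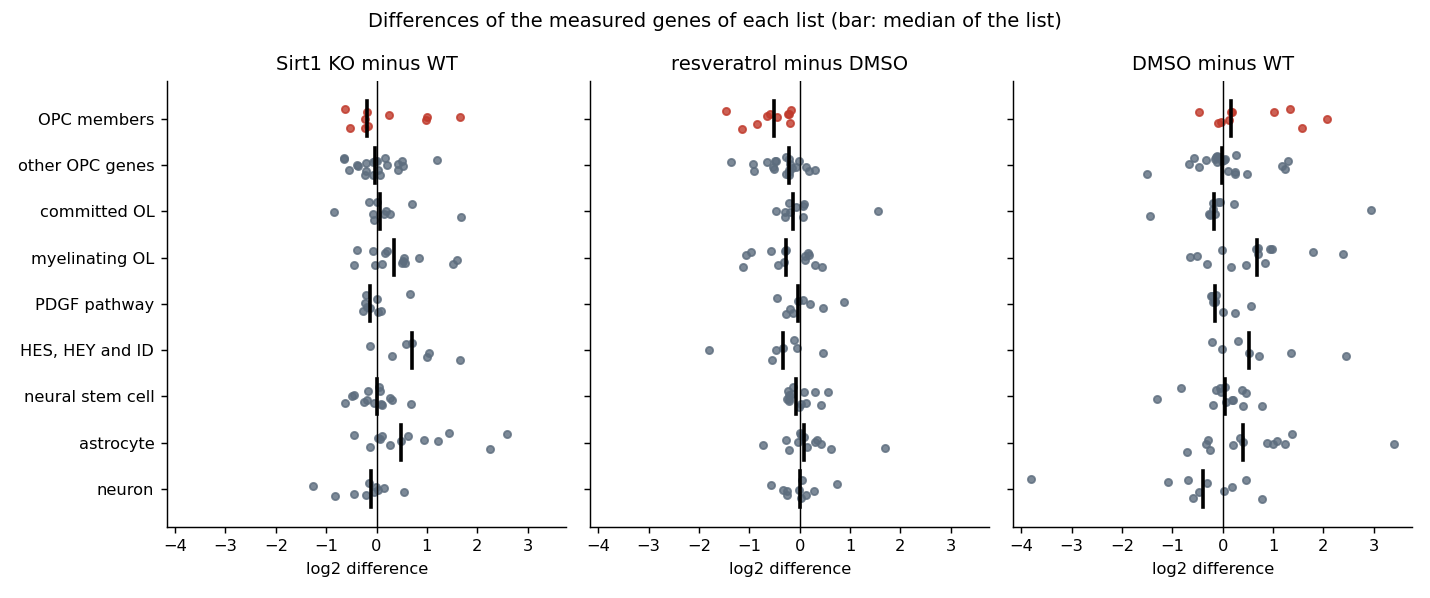
Log2 difference of each measured gene in the precursor set and in related lists for the 3 comparisons, with the median of each list as a bar (OPC, oligodendrocyte precursor cell; OL, oligodendrocyte). Some points are dim probes on part of the arrays; after resveratrol the medians were -0.52 for the 10 precursor genes, -0.22 for other precursor genes and -0.27 for myelinating oligodendrocyte genes.

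Other genes of the lineage were read as lists. Of 21 measured further precursor genes, 0 passed in any of the 3 comparisons without a block. With slide as a block 1 passed, Rlbp1 in DMSO against WT (1.74, limma, adjusted p = 0.0276). After resveratrol 18 had a lower mean than in DMSO and 16 were lower in both pairs (33% of all genes), with a median of -0.22. Megf11, a scavenger-type receptor, differed by -0.64 (SE 0.22) and the factor Sox6, which restrains differentiation of precursors, by -0.54 (SE 0.31). In Sirt1 KO against WT this list had a median of -0.03, with 5 genes higher and 7 lower in both pairs (23.5% and 32.6% of all genes), and the endothelin receptor gene Ednrb differed by 0.50 (SE 0.34). Rlbp1, a retinoid-binding protein gene, differed by -0.55 there (SE 0.48), and Scrg1 by -0.64 (SE 0.50), both with overlap between the groups. Rlbp1 read -1.08 and 0.02 in Sirt1 KO, against -0.52 and 0.56 in WT.

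Genes of later stages were measured too. Of 14 myelinating oligodendrocyte genes, 0 passed. Their median in Sirt1 KO against WT was 0.35, with 9 higher and 3 lower in both pairs (23.5% and 32.6% of all genes). In resveratrol against DMSO it was -0.27, with 2 higher and 7 lower in both pairs (35.5% and 33% of all genes). Cnp, an enzyme of myelin membranes, was higher by 0.54 in Sirt1 KO than in WT (SE 0.21) and differed by -0.42 after resveratrol (SE 0.21). Gal3st1, which makes the myelin lipid sulfatide, differed by -0.97 after resveratrol (SE 0.30). Others went the opposite way. Trf (0.44, SE 0.39) and Aspa (0.30, SE 0.51) were higher after resveratrol in both pairs, with overlap. Ugt8a differed by -0.39 in Sirt1 KO against WT (SE 0.41), also with overlap. Mog, Opalin and Ermn, which mark fully mature cells, were not measured above the filter. Of 10 genes of committed cells, 0 passed, with medians of 0.08 for Sirt1 KO against WT and -0.13 for resveratrol against DMSO. DMSO differed from WT by 2.95 for the homeodomain factor Nkx6-2 (SE 0.66), by -1.44 for Bcas1 (SE 0.31), a marker of newly formed oligodendrocytes, and by 2.40 for Trf, the transferrin that oligodendrocytes make (SE 0.39), with adjusted p = 0.307, 0.291 and 0.148 (limma). All 3 passed with slide as a block (adjusted p = 0.00412, 0.0220 and 0.0173).

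Ligands and signal adaptors of PDGF receptors stayed near 0 as a list, with a median of -0.13 in Sirt1 KO against WT and -0.04 in resveratrol against DMSO over 9 measured genes, and 0 passed. Pdgfa, the ligand of PDGFRA, differed by 0.46 after resveratrol (SE 0.32), and the adaptor Shc1 by 0.88 (SE 0.25). HES, HEY and ID repressors, which hold back differentiation, had medians of 0.70 in Sirt1 KO against WT and -0.34 in resveratrol against DMSO over 7 measured genes, again with 0 passing. Hes5 read 4.52 and 4.36 in Sirt1 KO, against 2.87 and 2.68 in WT, a difference of 1.66 (SE 0.35). The same gene read 3.86 and 2.96 after resveratrol, against 5.27 and 5.16 in DMSO, a difference of -1.81 (SE 0.35). Id4 differed by 1.05 in Sirt1 KO against WT (SE 0.30).

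Markers of other cells were checked because Pdgfra and Cspg4 are also carried by fibroblasts and pericytes. Of 16 markers of pericytes, smooth muscle and fibroblasts 7 were measured, and Pdgfrb, Rgs5, Des, Abcc9, Kcnj8, Vtn, Col1a1, Lum and Dcn were not above the filter. The summed signal of the 7, in units of each array's 75th percentile, was 24.9 to 26.1 after resveratrol, against 22.9 to 28.8 in DMSO, and 23.1 to 27.3 in Sirt1 KO, against 19.7 to 28.2 in WT. Between 84.9% and 93.6% of this sum came from the smooth muscle actin Acta2, so it says little of the other 6. Their list had a median difference of 0.21 after resveratrol and 0.15 in Sirt1 KO against WT. Tagln, a smooth muscle protein gene, was 1.98-fold higher in Sirt1 KO than in WT with no overlap (log2 difference 0.99, SE 0.32).

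Astrocyte genes had medians of 0.09 in resveratrol against DMSO and 0.49 in Sirt1 KO against WT over 13 measured genes, and their sums were 259 to 267 after resveratrol, against 231 to 266 in DMSO, and 192 to 305 in Sirt1 KO, against 122 to 196 in WT. After resveratrol 5 of the 13 were higher with no overlap (10.2% of all genes) and 0 were lower (8.86%). In both pairs 7 were higher and 4 were lower (35.5% and 33% of all genes). Gfap, an intermediate filament of astrocytes, was 3.23-fold higher (log2 difference 1.69, SE 0.64) and the secreted chaperone Clu 1.54-fold higher (0.62, SE 0.23), both without overlap. Fgfr3 (-0.73, SE 0.96) and Aldoc (-0.27, SE 0.41) were lower in both pairs, with overlap between the groups. In Sirt1 KO against WT, 5 were higher with no overlap (7.6% of all genes) and 0 were lower (7.37%). In both pairs 8 were higher and 1, Sox9 (-0.44, SE 0.32), was lower (23.5% and 32.6% of all genes). The lipid carrier Apoe was 2.72-fold higher in Sirt1 KO (1.45, SE 0.40). Gfap was well above background on 1 Sirt1 KO array and on 0 WT arrays. Each WT array was set to its lowest signal well above background where Gfap read lower. The dim Sirt1 KO array kept its own reading. On these values Gfap was 1.85-fold higher in Sirt1 KO. This is not a firm lower bound, since the dim array enters the mean.

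Microglial markers summed to 0.18 to 0.54 over all groups, with 3 of 12 measured. Neuronal markers, 10 of 13 measured, summed to 9.69 to 11.99 after resveratrol, against 11.5 to 13.4 in DMSO, and to 14.6 to 17.1 in Sirt1 KO, against 13.1 to 20.3 in WT. Much of this sum came from Map2, which read 3.52 and 3.35 on the log2 scale in Sirt1 KO, so it says little of the other neuronal genes. Endothelial markers, 2 of 8 measured, summed to 0.16 to 0.62 after resveratrol, against 0.17 to 0.63 in DMSO, and to 0.38 to 0.97 in Sirt1 KO, against 0.17 to 0.27 in WT. In Sirt1 KO replicate 1 this sum came mainly from Flt1, at -0.26 on the log2 scale, against -2.89 for Kdr. Flt1, a VEGF receptor gene, was 4.17-fold higher in Sirt1 KO than in WT with no overlap (2.06, SE 1.02), and like Gpr17, Sox10 and C1ql1 it was brighter in replicate 1 in 4 of 4 groups. Ependymal markers, 4 of 8 measured, summed to 0.85 to 2.82 after resveratrol, against 0.77 to 1.75 in DMSO, and to 0.88 to 3.19 in Sirt1 KO, against 0.83 to 2.17 in WT. None of these genes passed in either comparison (limma, adjusted p = 1.0 for Tagln, Gfap, Clu, Apoe and Flt1), and the part of these cell types in the differences of the precursor genes was not tested.

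**Figure D4:**
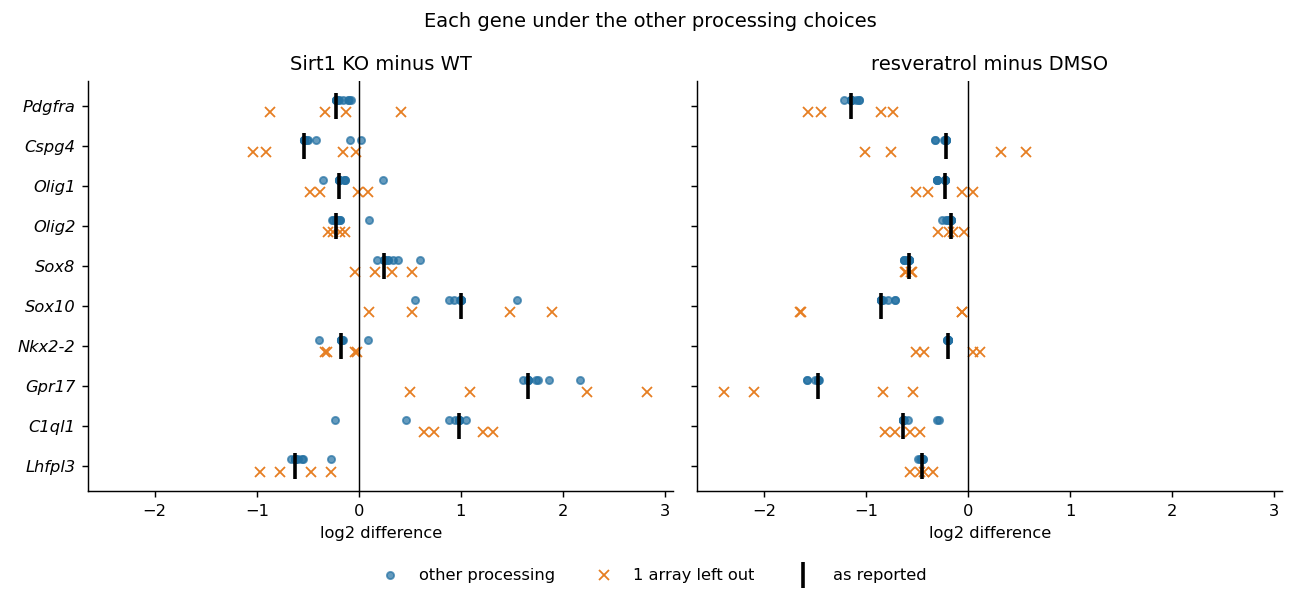
Log2 difference of each gene as reported (bar), under the other processing choices (dots) and with 1 array left out (crosses). In resveratrol against DMSO the dots stay left of 0 for all 10 genes, and in Sirt1 KO against WT the dots of C1ql1 reach -0.23.

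The 5 genes whose signal followed the mean of the 10 precursor genes most closely over the 8 arrays were Zswim9, Spata13, Bcl7a, Cttnbp2 and Ccdc88c. Their root mean square differences from that mean were 0.10 to 0.13 log2 units. They were picked as the closest of 13279 genes, so such small values follow in part from the search. The members, which were not picked this way but are each part of that mean, ran from 0.30 for C1ql1 to 0.88 for Gpr17. The mean of the members, relative to its own average, was 0.06 and -0.46 after resveratrol, against 0.57 and 0.22 in DMSO, and 0.32 and -0.33 in Sirt1 KO, against -0.09 and -0.29 in WT.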

How the data were processed

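RNA from 8 neurosphere samples was labelled in one colour and hybridised to Agilent mouse arrays, each scanned and quantified by the authors with Feature Extraction (10.7 per the submitters' processing notes, 10.7.3.1 in the files). Per the file headers, the deposited intensity values are the processed signal. These values were averaged over the spots of a probe, leaving out control and outlier spots, and taken as log2 minus the 75th percentile of the array. A probe was kept if well above background on both arrays of a group (26361 of 41174 probes, 14256 without a symbol). The brightest probe stood for a gene. The precision is limited by 2 arrays per group. Group means over all 8 arrays were tested with limma 3.58.1 (R 4.3.3, intensity trend, two-sided, Benjamini-Hochberg over 13332 genes, threshold 0.05), a step tested on simulated data. Accessions were given symbols through RefSeq.

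Members and lists were chosen with earlier results of these data known. Named list genes were at most the 2 of smallest unadjusted p in each direction per comparison, limited here to those well above background on all 8 arrays, apart from Gfap. Alternatives were normexp (offset 50, on median signals, with local or array-wide background), quantile normalization, the authors' deposited log2 table, other filters, the mean of a gene's probes, no intensity trend, replicate and slide blocks, and leaving out each array. Same-numbered arrays share slides, sex or signal strength in part, but the labels tie a number to no common animal, litter or day, and 2 pairs are too few to settle pairing, so the replicate block is an alternative only.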

Additional observations from a re-analysis of the deposited data

How the results depend on the processing

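With the replicate block the spread was smaller, and the genes called numbered 57 (0.428%) in Sirt1 KO against WT, 73 (0.548%) in resveratrol against DMSO, 1570 (11.8%) in DMSO against WT and 49 (0.368%) in the difference between the first 2 comparisons. Precursor genes called with this block numbered 1 in Sirt1 KO against WT (Gpr17, adjusted p = 0.0445), 5 in DMSO against WT (Pdgfra 0.0213, Sox10 0.00193, Nkx2-2 0.0361, Gpr17 0.00169 and C1ql1 0.0153) and 2 in the difference (Sox10 0.0439 and Gpr17 0.0160), all by limma. After resveratrol it called 0, the smallest adjusted p being 0.0534 for Gpr17. Genes of the other lists were called too. In Sirt1 KO against WT these were 2 repressors, among them Hes5 (0.00910), and 3 astrocyte genes, among them Apoe (0.00777). Tagln (0.0208), Flt1 (0.0158) and 1 myelinating oligodendrocyte gene were called there as well. In resveratrol against DMSO it called Hes5 (0.0144) and 1 myelinating oligodendrocyte gene. In DMSO against WT it called 5 further precursor genes, among them Rlbp1 (0.00108), and the committed genes Nkx6-2 (5.76e-05) and Bcas1 (0.000327). It also called 3 myelinating genes there, among them Trf (3.53e-05). Repressor, stem cell, astrocyte, neuronal and endothelial genes were also called in that comparison. Deviations of same-numbered arrays correlated at 0.737, 0.834 and 0.596, over only 2 pairs each.

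With slide as a block, 145 genes passed in DMSO against WT, the median of the precursor genes in Sirt1 KO against WT was -0.0357, Cspg4 there was 0.0218 and Olig1 in DMSO against WT 0.12. Normexp on the local background turned that Sirt1 KO median to 0.0930, with Olig1 0.24, Olig2 0.10, Nkx2-2 0.0866 and C1ql1 -0.23. In DMSO against WT it called 3 genes and gave a precursor median of 0.49, with Olig1 0.38, C1ql1 -0.27 and Lhfpl3 0.26. With 1 background per array Olig1 was 0.0115 there, and the filter on all 8 arrays left 4 genes called. The cause was not tested.

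Leaving out 1 array at a time gave 0 to 5 called genes in Sirt1 KO against WT (5 without Sirt1 KO replicate 1, 3 without Sirt1 KO replicate 2), 0 to 0 in DMSO against WT and 0 to 3 in the difference (3 without Sirt1 KO replicate 2). Precursor medians ran from -0.0889 to 0.0388 (without Sirt1 KO replicate 1), from 0.25 to 0.45 and from 0.30 to 0.64 in these. In Sirt1 KO against WT, Pdgfra ran from -0.87 to 0.41, Olig1 from -0.48 to 0.0938 and Sox8 from -0.0400 to 0.52. After resveratrol, Cspg4 ran from -1.004 to 0.57, Olig1 from -0.50 to 0.0501 and Nkx2-2 from -0.51 to 0.12. In DMSO against WT, Cspg4 ran from -0.36 to 0.72, Olig1 from -0.31 to 0.24, Sox8 from -0.12 to 0.44 and Lhfpl3 from -0.23 to 0.0647; these turned without DMSO replicate 1 (Cspg4, Olig1), WT replicate 1 (Sox8) or WT replicate 2 (Cspg4, Olig1, Lhfpl3). Where a group kept 1 array, it was assumed to vary like the others. The authors' table was not used for DMSO against WT, because its column medians were 6.28 on 6 arrays and 6.01 on 2.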
